A study of Mus musculus with 10 samples.

Results

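The T cell receptor (TCR) complex and the surface glycoproteins that accompany it were followed in regulatory T cells (Treg, a CD4 T cell lineage that is set by Foxp3 and holds other immune cells in check) with and without the transcription factors TCF1 and LEF1. The set was taken by gene name, with earlier results of these data known. It holds 10 genes, Cd3g, Cd3e, Cd3d, Cd247, Cd4, Thy1, Cd5, Cd6, Cd7 and Cd2, of 32767 genes in each table. All 10 were present in the tables and passed the filter on low values. RNA was sequenced from 2 libraries of dKO Treg and 2 libraries of WT Treg, both from spleen and lymph nodes of mice on a C57BL/6 background. The dKO mice were Foxp3cre/wt with Tcf7fl/fl and Lef1fl/fl alleles (Tcf7 encodes TCF1), and the WT mice were Foxp3cre/wt with wild-type Tcf7 and Lef1, so both groups carried the cre allele. Foxp3 is X-linked, and in these heterozygous mice the cells with an active cre allele, sorted by YFP, develop beside Treg without it. In both groups the CD4 cells were first enriched on magnetic columns, so CD4 protein was itself a criterion for the cells. The labels give neither age nor sex. They also do not tell whether each library is from its own animal, and every p-value here therefore rests on a spread between libraries that may be technical.

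An αβ T cell reads peptide bound to MHC molecules through its antigen receptor, whose variable chains have almost no cytoplasmic part. The signal passes through the invariant CD3γ, CD3ε, CD3δ and ζ chains, whose tyrosine motifs are phosphorylated by the kinase Lck, and CD4 brings Lck to the complex when it binds MHC class II. CD5 and CD6 are scavenger receptor proteins that tune this signal, CD2 is an adhesion receptor for CD48 in the mouse, and Thy-1 and CD7 are small proteins of the immunoglobulin superfamily. In Treg, TCR signals are needed for the suppressive programme of activated cells.

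The values are FPKM (fragments scaled to transcript length and to the mapped fragments of the library) as the authors deposited them, so levels of different genes are compared per length. Between 10435 and 10678 genes per library reached 1 FPKM. The absolute depth is unknown. Judged by the smallest values, and relative to WT replicate 1, the depth was 67.7% in dKO replicate 1, 71.1% in dKO replicate 2 and 72% in WT replicate 2. The deleted genes check the labels in part, because the removed exons are not named. Lef1 had 71.6 and 62.8 FPKM in dKO Treg, against 160 and 167 FPKM in WT Treg, and it passed the test described next (log2 fold change -1.27, standard error (SE) 0.09, limma adjusted p = 0.016), although not without either WT library (limma adjusted p = 0.12 and 0.17). Tcf7 had 316 and 272 FPKM in dKO Treg, against 456 and 501 FPKM in WT Treg, and missed the threshold (log2 fold change -0.70, SE 0.10, limma adjusted p = 0.081). Foxp3, the lineage factor, had 126 and 114 FPKM in dKO Treg and 120 and 106 FPKM in WT Treg (limma adjusted p = 0.69).

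Of the 10 genes, Cd7 rose and Thy1 fell in dKO Treg, and the other 8 did not pass. Each gene was tested with limma on log2(FPKM + 1) in a fit over 10710 genes that reached 1 FPKM in 2 or more libraries, with Benjamini-Hochberg adjustment over all of them and a threshold of 0.05. Over all tested genes, 0.7% passed in either direction, 0.317% as higher in dKO and 0.383% as lower in dKO. At an unadjusted p under 0.05 the same fit held 8 of the 10 genes, 3 with higher and 5 with lower values in dKO, against 17.3% of all tested genes. The libraries of the groups did not overlap for 8 of the 10 genes, against 50.8% of all tested genes. The dKO libraries were above for 3 of them, against 26.6% of all tested genes, and below for 5, against 24.2%. Because the 10 genes were chosen with earlier results of these data known, these counts describe the set and do not test it. The median log2 fold change was -0.07 over the 10 genes and 0.01 over all tested genes. A log2 fold change here is dKO minus WT on the log2(FPKM + 1) scale, and a 95% confidence interval (CI) is that of limma's moderated fit.

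**Figure D1:**
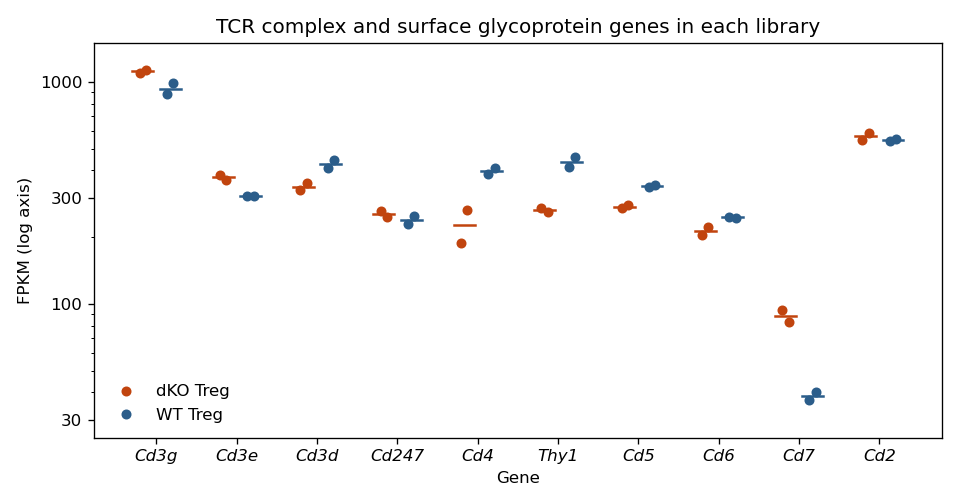
FPKM (log axis) of the 10 genes in each library, with points for single libraries and bars for the group means, dKO Treg left of WT Treg. Cd7 lies at 83.3 to 93.6 FPKM in dKO Treg and at 37.1 to 40.2 FPKM in WT Treg, and Thy1 and Cd4 lie lower in both dKO libraries than in both WT libraries.

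**Figure D2:**
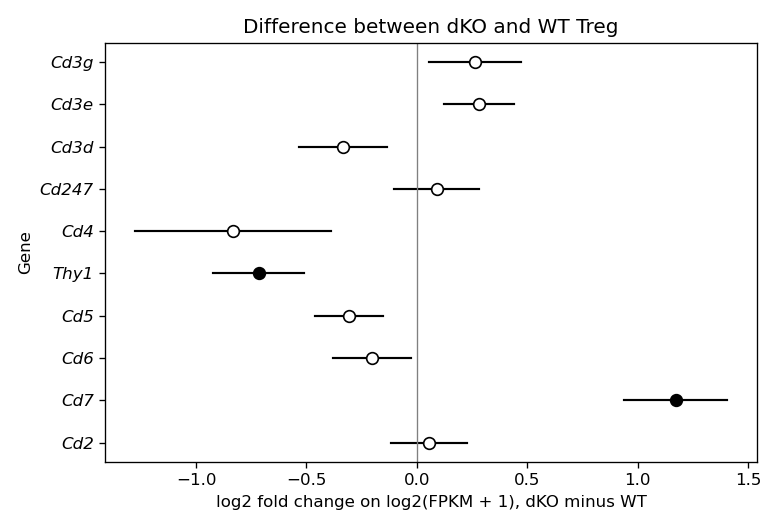
log2 fold change of each gene (dKO minus WT, on log2(FPKM + 1)) with its 95% CI from limma. Filled points, Thy1 and Cd7, have an adjusted p under 0.05.

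Among the CD3 chains, Cd3g and Cd3e were higher and Cd3d was lower in both dKO libraries than in both WT libraries, and none of the chains passed the test over all genes. Cd3g, which encodes the γ chain, had 1104 and 1135 FPKM in dKO Treg, against 882 and 986 FPKM in WT Treg. Its log2 fold change was 0.26 (SE 0.08, 95% CI 0.06 to 0.47, limma adjusted p = 0.22). Both dKO libraries lay above both WT libraries, which themselves differed by a factor of 1.12. Cd3e encodes the ε chain, which pairs with both γ and δ. It had 382 and 363 FPKM in dKO Treg, against 306 and 307 FPKM in WT Treg, a log2 fold change of 0.28 (SE 0.06, 95% CI 0.12 to 0.44, limma adjusted p = 0.15). The dKO libraries were again both above the WT libraries, with a gap wider than that between the libraries of either group.

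Cd3d, the gene of the δ chain, differed in the other direction. It had 326 and 351 FPKM in dKO Treg, against 410 and 444 FPKM in WT Treg, a log2 fold change of -0.33 (SE 0.08, 95% CI -0.53 to -0.14, limma adjusted p = 0.15). The groups did not overlap, and the libraries within each group differed by a factor of 1.08. Cd247 encodes the ζ chain, which carries more signalling motifs than any other chain of the complex and joins it last. It had 262 and 247 FPKM in dKO Treg and 229 and 249 FPKM in WT Treg. These libraries overlapped, and the 95% CI of its log2 fold change ran from -0.10 to 0.28 (estimate 0.09, limma adjusted p = 0.59).

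The share of Cd3d in the CD3 chain transcripts lay lower, and that of Cd3g higher, in both dKO libraries than in both WT libraries. Cd3d made up 15.7% and 16.8% of the summed CD3 chain FPKM in dKO Treg, against 22.4% in each WT library, with means of 16.2 ± 0.734% and 22.4 ± 0.0455% (SD, n = 2 each). Cd3g made up 53.2% and 54.1% in dKO Treg, against 48.3% and 49.7% in WT Treg. The share of Cd3e was 18.4% and 17.3% in dKO Treg and 16.8% and 15.4% in WT Treg, while that of Cd247 was 12.6% and 11.8% in dKO Treg and 12.5% in each WT library. The ratio of Cd3g to Cd3d was 3.39 and 3.23 in the dKO libraries, against 2.15 and 2.22 in the WT libraries. The ratio of Cd3g to Cd3e overlapped between the groups, at 2.89 and 3.12 in dKO Treg and 2.88 and 3.22 in WT Treg. An exact two-sided permutation test over the 4 libraries gave p = 0.333 for the Cd3g to Cd3d ratio and for the Cd3d share, the smallest value that 2 against 2 libraries allow. The summed FPKM of the chains was 2073 and 2096 in dKO Treg, against 1827 and 1986 in WT Treg, so it lay higher in dKO on the deposited scale. The FPKM of all genes also summed higher in dKO, to 726571 and 719527, against 599231 and 619340 in WT Treg. Relative to these totals the summed chains lay lower in dKO. The median FPKM over tested genes was 15.97 and 15.94 in dKO Treg, against 15.79 and 16.06 in WT Treg.

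**Figure D3:**
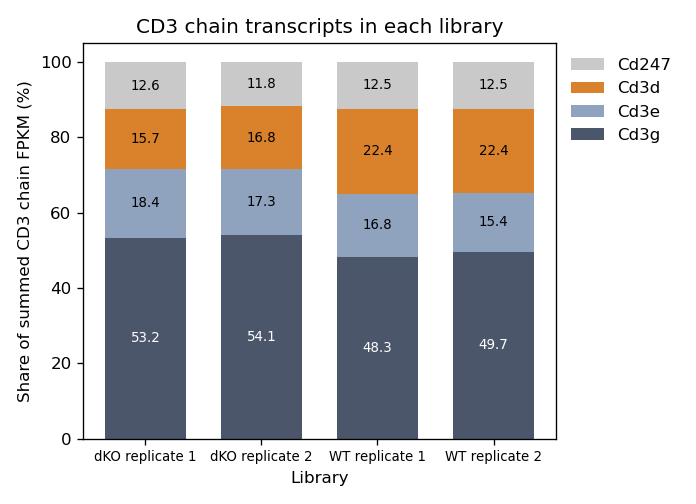
Share (%) of Cd3g, Cd3e, Cd3d and Cd247 in their summed FPKM, 1 bar per library, the dKO libraries left of the WT libraries. The Cd3d part is 15.7% and 16.8% in the dKO libraries and 22.4% in both WT libraries.

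Cd3g, Cd3d and Cd3e lie together on mouse chromosome 9 of the GRCm38 build. Cd3g runs from 44969572 to 44980431 on the minus strand, Cd3d from 44981786 to 44987339 on the plus strand and Cd3e from 44998740 to 45009627 on the minus strand. Cd3g and Cd3d are thus transcribed away from each other, with 1355 bases between their annotated starts, and their transcripts do not overlap. Ube4a, a ubiquitin ligase gene and the nearest protein-coding gene on the other side of Cd3g, had 21.4 and 22.3 FPKM in dKO Treg and 22.1 and 22.9 FPKM in WT Treg. Cd247 is apart from them on chromosome 1, from 165788681 to 165877277 on the plus strand, and its end overlaps the opposite-strand gene Pou2f1, which stayed between 6.59 and 12.2 FPKM in the 4 libraries. Gm48719 on the opposite strand and Gm48720 on the same strand overlap Cd3e and were not analysed here. Whether the authors' counting used strand is not given in the sources used here.

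The 250 bases before the RefSeq start (GRCm38.p6) are shown for these divergent neighbours and for Cd3e. They were searched for a known core sequence of the deleted factors, with the values of the chains already known. Cores of ETS, RUNX and GATA factors, the E-box and the TATA box were searched as well and are not described here. Cd3d alone of the chains had lower values in dKO, and it did not pass. Capitals mark the TCF/LEF core CTTTGA on either strand, and each sequence reads 5′ to 3′ towards its gene.
Cd3d (plus strand, chr9:44981536-44981785): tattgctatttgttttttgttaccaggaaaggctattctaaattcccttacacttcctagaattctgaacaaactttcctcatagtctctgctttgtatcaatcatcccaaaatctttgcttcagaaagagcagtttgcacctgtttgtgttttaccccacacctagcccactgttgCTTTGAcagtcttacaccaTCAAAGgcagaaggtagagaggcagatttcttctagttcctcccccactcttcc
Cd3g (minus strand, chr9:44980432-44980681): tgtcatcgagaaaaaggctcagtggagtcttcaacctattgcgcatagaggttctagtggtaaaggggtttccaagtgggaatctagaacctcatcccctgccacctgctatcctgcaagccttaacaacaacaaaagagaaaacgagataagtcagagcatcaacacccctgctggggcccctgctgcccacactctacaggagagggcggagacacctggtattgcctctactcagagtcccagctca
Cd3e (minus strand, chr9:45009612-45009861): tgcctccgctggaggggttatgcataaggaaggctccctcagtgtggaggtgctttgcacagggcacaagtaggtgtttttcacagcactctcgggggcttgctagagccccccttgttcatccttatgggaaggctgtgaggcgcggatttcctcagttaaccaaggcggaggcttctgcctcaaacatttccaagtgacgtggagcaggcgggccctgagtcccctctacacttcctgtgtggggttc

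The Cd3d window holds the core 2 times, at -73 to -68 on the gene's strand and at -54 to -49 on the other strand, counted back from -1 at the base before the start, and the starts of both copies are 19 bases apart. The Cd3g and Cd3e windows hold no copy of CTTTGA on either strand. RefSeq promoters were matched for 5 of the 10 genes, not for Cd4, Thy1, Cd6, Cd7 and Cd2, and those of Cd247 and Cd5 also hold none. Over 32851 promoter windows of the same length, 13.8% hold the core at least once and 1.37% hold it at least 2 times. The match is a description of letters, not of a bound site. Only CTTTGA was searched as the TCF/LEF core, and only in these windows. Other forms of the core, and sites outside the windows, were not counted. A window without CTTTGA is therefore not shown to lack a TCF/LEF site. Among tested genes with a matched promoter, the median log2 fold change was -0.03 for the 84 genes with 2 or more cores, 0.02 for the 902 genes with 1 core and 0.01 for the 6857 genes with none. Of the genes with 2 or more cores, 0 passed as higher and 1 as lower in dKO, and 57.1% had a negative log2 fold change. With 1 core, 2 passed as higher and 4 as lower (45.7% negative), and with none, 15 passed as higher and 17 as lower (46.7% negative). Cd3d is itself among the genes with 2 or more cores, and a part of the cores in its values was not tested.

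Cd4, the MHC class II co-receptor, had 187 and 264 FPKM in dKO Treg, against 384 and 411 FPKM in WT Treg. The dKO libraries were the lower pair, but they differed from each other by a factor of 1.41, the widest gap between replicates among the 10 genes. The log2 fold change was -0.83 (SE 0.17, 95% CI -1.28 to -0.39, limma adjusted p = 0.14), with the largest SE of the 10 genes. The estimate depended on the dKO library. Without dKO replicate 2 it was -1.08 and passed (limma adjusted p = 0.022), and without dKO replicate 1 it was -0.58 and did not (limma adjusted p = 0.12). Relative to the summed CD3 chains, Cd4 stood at 0.0904 and 0.126 in dKO Treg, against 0.210 and 0.207 in WT Treg. A bulk library cannot tell fewer cells of a type from less RNA per cell.

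A Treg marker and an activation gene also had their lower dKO value in replicate 1. The folate receptor 4 gene Izumo1r had 216 and 300 FPKM in dKO Treg, against 483 and 440 FPKM in WT Treg, and Cd69, an early activation antigen, had 45.6 and 68.6 FPKM in dKO Treg, against 91.1 and 102 FPKM in WT Treg. The summed FPKM of 9 Treg markers was 913 and 1131 in dKO Treg, against 1350 and 1248 in WT Treg, and its part in the Cd4 values was not tested. Of the 9 markers, 6 had an unadjusted p under 0.05 (1 higher, 5 lower), against 17.3% of all tested genes, and none passed. Cd8b1, a chain of the alternative co-receptor, had 15.0 and 16.5 FPKM in dKO Treg and 14.1 and 15.4 FPKM in WT Treg (log2 fold change 0.09, SE 0.10, limma adjusted p = 0.70), and Cd8a did not exceed 0.488 FPKM in any library. Cd4 lies on chromosome 6 from 124864692 to 124888221 on the minus strand, 16.1 kb from its structural relative Lag3, which had 14.8 and 23.1 FPKM in dKO Treg and 28.9 and 22.4 FPKM in WT Treg.

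Thy1, which encodes the GPI-anchored Thy-1 glycoprotein that marks mouse T cells, fell in dKO Treg. It had 271 and 259 FPKM in dKO Treg, against 412 and 461 FPKM in WT Treg, with means of 265 ± 8.87 and 437 ± 34.3 FPKM (SD, n = 2 each). Both dKO libraries were well below both WT libraries, by a fold of 0.61 (95% CI 0.53 to 0.70). The log2 fold change was -0.72 (SE 0.08), with a limma adjusted p of 0.0495, just inside the threshold. The call ended in 9 of 13 alternative settings, among them the removal of any single library (limma adjusted p between 0.065 and 0.22), while the log2 fold change stayed between -0.80 and -0.64. Thy1 lies on chromosome 9 from 44043384 to 44048579, 0.937 Mb from the start of Cd3g.

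Cd5 and Cd6 are neighbours on chromosome 19 with 91.1 kb between their starts, from 10717116 to 10739002 and from 10789341 to 10830058, both on the minus strand. Both had lower values in dKO, by less than Cd4 or Thy1, and neither passed the test. Cd5, an inhibitory receptor whose level in T cells follows the strength of TCR signals, had 271 and 278 FPKM in dKO Treg, against 336 and 344 FPKM in WT Treg. Its log2 fold change was -0.31 (SE 0.06, 95% CI -0.46 to -0.15, limma adjusted p = 0.12). The replicates lay close together in both groups, within a factor of 1.03, and the groups did not overlap. Cd6 encodes a receptor for ALCAM, the product of Alcam. It had 205 and 222 FPKM in dKO Treg, against 246 and 245 FPKM in WT Treg, a log2 fold change of -0.20 (SE 0.07, 95% CI -0.38 to -0.02, limma adjusted p = 0.25). The ratio of Cd5 to Cd6 was 1.32 and 1.25 in dKO Treg and 1.36 and 1.40 in WT Treg, so the ratio lay lower in both dKO libraries.

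Cd7 rose in dKO Treg and showed the largest log2 fold change of the 10 genes. It had 93.6 and 83.3 FPKM in dKO Treg, against 37.1 and 40.2 FPKM in WT Treg, with means of 88.4 ± 7.29 and 38.6 ± 2.23 FPKM (SD, n = 2 each). The log2 fold change was 1.17 (SE 0.09, limma adjusted p = 0.020), which is 2.25-fold (95% CI 1.92 to 2.65). Its level stood at the 91.1 and 89.9 percentile of the tested genes in the dKO libraries, against 75.2 and 77.2 in the WT libraries, whereas the other 9 genes stood at the 96.1 percentile or higher in each library. The call held without either dKO library (limma adjusted p = 0.040 and 0.020) and ended without either WT library (0.16 each), with no filter (0.12), with no variance trend (0.051) and with the replicate number as a block (0.074). The log2 fold change lay between 1.09 and 1.26 in all 13 alternatives.

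Cd7 lies on chromosome 11 from 121036747 to 121039418 on the minus strand. An opposite-strand gene, Gm11775, spans it and is listed at 0 in the 4 libraries, and Sectm1b, 14.0 kb away and related to a CD7 ligand gene known from human, is listed at 0 as well. Csnk1d, the nearest protein-coding gene on the other side, had 80.4 and 77.6 FPKM in dKO Treg, against 97.9 and 92.3 FPKM in WT Treg. CD7 is also made by natural killer (NK) cells. Of 11 markers of CD8 T and NK cells, 7 were tested and none passed, and 6 of the 7 had a positive log2 fold change, with a median of 0.67. At an unadjusted p under 0.05 there were 2 with higher and 1 with lower values in dKO, against 17.3% of all tested genes in either direction. The summed FPKM of all 11 was 126 and 150 in dKO Treg, against 88.7 and 56.3 in WT Treg. The chemokine gene Ccl5 was the largest single part of that sum in each library. It had 65.4 and 84.1 FPKM in dKO Treg, against 35.1 and 16.9 FPKM in WT Treg (limma adjusted p = 0.15). The perforin gene Prf1 had 17.5 and 10.9 FPKM in dKO Treg, against 3.68 and 4.39 FPKM in WT Treg (log2 fold change 1.56, SE 0.23, limma adjusted p = 0.087). The granzyme gene Gzma had 1.27 and 2.78 FPKM in dKO Treg, against 0.835 FPKM in each WT library. Nkg7 overlapped between the groups, with 22.5 and 31.8 FPKM in dKO Treg and 30.3 and 15.9 FPKM in WT Treg. Eomes lay lower in dKO, with 0.592 and 0.838 FPKM, against 1.43 and 1.37 FPKM in WT Treg. The NK receptor gene Ncr1 did not exceed 0.0733 FPKM in any library. Klrb1c had 0.490 and 0.893 FPKM in dKO Treg, against 1.39 and 0.932 FPKM in WT Treg. The part of these markers in the Cd7 values was not tested.

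Cd2, the CD48 receptor, had 551 and 588 FPKM in dKO Treg and 540 and 554 FPKM in WT Treg. The libraries overlapped, and the 95% CI of the log2 fold change ran from -0.12 to 0.23 (estimate 0.06, limma adjusted p = 0.71). Cd48 itself had a log2 fold change of -0.06 (SE 0.13, limma adjusted p = 0.85). Cd2 lies on chromosome 3 from 101275899 to 101287939, 29.8 Mb from the start of the deleted Lef1.

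The order of the levels changed below the top positions. Cd3g was highest in both genotypes, followed by Cd2, and Cd7 was lowest, each apart from its neighbours in the library ranges. In dKO Treg, Cd3e (mean 373 FPKM) and Cd3d (338 FPKM) came next, and then Cd5, Thy1, Cd247, Cd4 and Cd6 between 275 and 214 FPKM, where each neighbouring pair overlapped. In WT Treg, Thy1 (437 FPKM), Cd3d (427 FPKM) and Cd4 (397 FPKM) followed Cd2, with overlap between neighbours. They came before Cd5 (340 FPKM) and Cd3e (307 FPKM), which stood apart, and before Cd6 and Cd247, which overlapped at 246 and 239 FPKM. Thy1 and Cd4 thus stood above Cd5 and Cd3e in every WT library, and Cd3e stood above both in every dKO library.

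**Figure D4:**
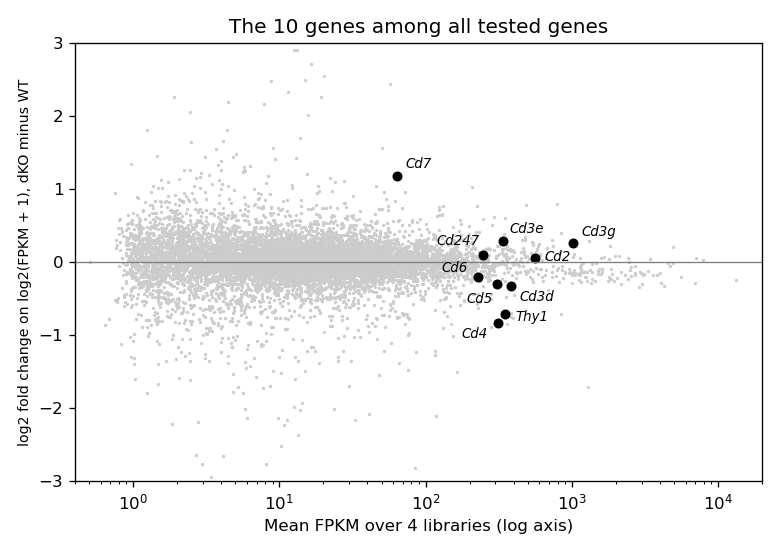
Mean FPKM over the 4 libraries (log axis) and log2 fold change (dKO minus WT, on log2(FPKM + 1)) of the 10 genes, in black, among all tested genes, in grey, of which 27 lie outside the plotted range. Cd7 lies at 1.17, Thy1 at -0.72 and Cd4 at -0.83, while the other 7 genes lie between -0.33 and 0.28.

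The machinery that carries the TCR signal was read from a list of 38 genes, all tested. None passed, and 12 had an unadjusted p under 0.05, 11 of them lower in dKO, against 17.3% of all tested genes in either direction. The median log2 fold change of the list was -0.07. The largest differences among genes of at least 5 FPKM were those of Ubash3a, a suppressor of TCR signalling, Dgka, a kinase that removes diacylglycerol, Themis, an adaptor of thymocyte selection, and Lcp2, which encodes the adaptor SLP-76. Syk, which averaged under 5 FPKM in both groups, had a larger log2 fold change of 1.04, higher in dKO (limma adjusted p = 0.11). Ubash3a had 56.1 and 48.9 FPKM in dKO Treg, against 87.0 and 83.8 FPKM in WT Treg (log2 fold change -0.69, SE 0.09, limma adjusted p = 0.069). Dgka had 179 and 182 FPKM in dKO Treg, against 259 and 281 FPKM in WT Treg (-0.58, SE 0.07, limma adjusted p = 0.060). Both lay lower in dKO in every library, and both passed when genes listed at 0 in any library were left out (limma adjusted p = 0.043 and 0.041). Themis had a log2 fold change of -0.48 (SE 0.09, limma adjusted p = 0.12) and Lcp2 one of -0.46 (SE 0.10, limma adjusted p = 0.15).

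Of 17 ligands and partners of the 10 proteins, 16 were in the tables and 13 were tested. None passed, and the median log2 fold change was -0.18. An unadjusted p under 0.05 was found for 4, all lower in dKO, against 17.3% of all tested genes in either direction. The named genes again averaged 5 FPKM or more in dKO or WT. Il16, whose product gives rise to a CD4 ligand, had 120 and 127 FPKM in dKO Treg, against 162 and 172 FPKM in WT Treg (log2 fold change -0.43, SE 0.07, limma adjusted p = 0.097). The LFA-1 subunit gene Itgal had a log2 fold change of -0.32 (SE 0.08, limma adjusted p = 0.17), Icam1, which encodes its ligand, one of -0.35 (SE 0.13, limma adjusted p = 0.27), and Lag3 one of -0.44 (SE 0.24, limma adjusted p = 0.41).

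Among 17 transcription factors that act on the co-receptor and CD3 genes, all tested, the deleted Lef1 alone passed, and the median log2 fold change was 0.01. An unadjusted p under 0.05 was found for 3 (1 higher, 2 lower in dKO), against 17.3% of all tested genes. Satb1, a chromatin organizer, had 219 and 191 FPKM in dKO Treg, against 125 and 149 FPKM in WT Treg (log2 fold change 0.58, SE 0.12, limma adjusted p = 0.13). Its libraries did not overlap between the groups, whereas those of Ikzf1, which encodes Ikaros, did (log2 fold change 0.26, SE 0.14, limma adjusted p = 0.41). Of 25 other surface glycoprotein genes of Treg, all tested, none passed, with a list median of -0.16. Of these, 9 had an unadjusted p under 0.05, 5 higher and 4 lower in dKO, against 17.3% of all tested genes. Among genes of the list that averaged 5 FPKM or more in dKO or WT, the largest differences were those of Cd69 (log2 fold change -0.77, SE 0.20, limma adjusted p = 0.18), of the SLAM receptor genes Slamf1 (-0.65, SE 0.12, 0.11) and Slamf6 (-0.61, SE 0.09, 0.094), and of Cd38 (-0.55, SE 0.21, 0.29). Without dKO replicate 2, Cd69, Slamf1 and Slamf6 passed (log2 fold change -1.06, -0.80 and -0.72, limma adjusted p = 0.030, 0.047 and 0.043). Without dKO replicate 1 their log2 fold changes were -0.48, -0.51 and -0.50, and none of these 3 genes passed (limma adjusted p = 0.20, 0.17 and 0.14).

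**Figure D5:**
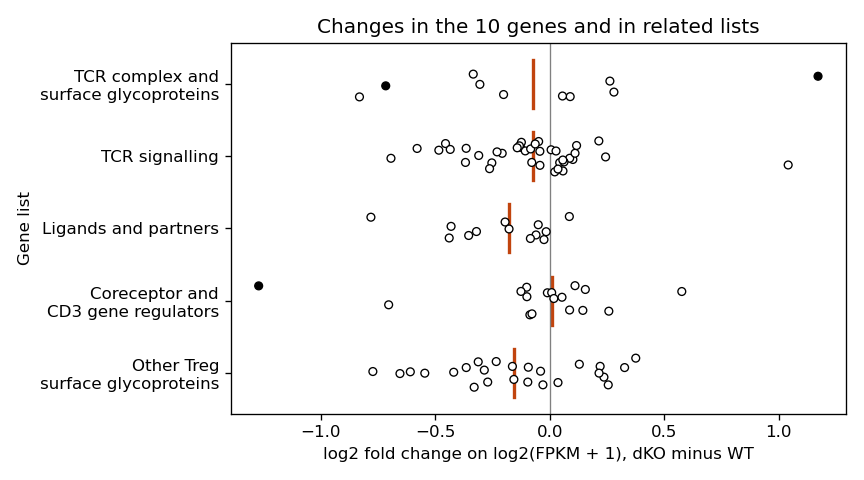
log2 fold change (dKO minus WT, on log2(FPKM + 1)) of the 10 genes and of the tested members of 4 related lists, 1 point per gene, with red bars for the medians. Filled points, Thy1, Cd7 and Lef1, have a limma adjusted p under 0.05, and the list medians lie between -0.18 and 0.01.

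The genes most like Cd7 and Thy1 in their 4 values were found among 8521 tested genes that averaged 5 FPKM or more in dKO or WT, by the root mean square difference of centred log2(FPKM + 1) values over the 4 libraries. Closest to Cd7 were 1810062O18Rik (0.0655), Susd3 (0.0742), which encodes a sushi domain protein, and Gadd45g (0.0877), a stress-response gene. Susd3 had 41.6 and 34.9 FPKM in dKO Treg, against 17.5 and 16.7 FPKM in WT Treg. Closest to Thy1 were Camk2d (0.0331), which encodes a calcium/calmodulin-dependent kinase subunit, the POU factor gene Pou6f1 (0.0529) and the deleted Tcf7 (0.0548). Camk2d had 35.4 and 33.2 FPKM in dKO Treg, against 56.8 and 62.2 FPKM in WT Treg. Over 4 libraries such likeness is a description only.

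All 9 Treg markers were tested, 3 with positive and 6 with negative log2 fold changes, and their median was -0.43. Foxp3, Il2ra and Tnfrsf18 were at 106 FPKM or more in every library, and these are the 3 that were not lower in dKO on average. Of the other 6, Gpr83, a G protein-coupled receptor gene, had 10.8 and 20.5 FPKM in dKO Treg, against 63.3 and 70.4 FPKM in WT Treg (log2 fold change -2.09, SE 0.29, limma adjusted p = 0.074). Ikzf2, which encodes Helios, had 27.9 and 46.9 FPKM in dKO Treg, against 77.3 and 60.4 FPKM in WT Treg (log2 fold change -0.90, SE 0.27, limma adjusted p = 0.22). The part of the lower Treg markers in the values of the 10 genes was not tested. Of 8 B cell markers, 3 were tested and none passed, and the sum of all 8 was 288 and 263 FPKM in dKO Treg, against 323 and 291 FPKM in WT Treg. The B cell gene Ms4a1 did not exceed 0.342 FPKM in any library, while Ighm had 263 and 238 FPKM in dKO Treg and 306 and 274 FPKM in WT Treg. Cd79b had 22.5 and 23.3 FPKM in dKO Treg, against 14.1 and 14.6 FPKM in WT Treg (limma adjusted p = 0.062). Of 12 myeloid markers, 4 were tested and none passed, and the summed FPKM of all 12 was 343 and 421 in dKO Treg and 376 and 370 in WT Treg. Most of that sum was Ctss, at 235 to 280 FPKM, and Cst3, at 87.3 to 105 FPKM, over the 4 libraries. In dKO replicate 2, Lyz2 reached 31.9 FPKM and Csf1r 8.51 FPKM, against 0.857 and 0.212 FPKM in dKO replicate 1. None of the tested markers of the remaining cell types passed. The erythroid sum lay between 1.18 and 5.83 FPKM, the plasmacytoid dendritic cell sum between 85.6 and 102 FPKM, of which Bst2 held 61.3 to 75.8 FPKM, and the γδ T and innate lymphoid sum between 18.2 and 27.7 FPKM. The stromal and endothelial sum lay between 62.7 and 76.9 FPKM, of which Pecam1 held 57.9 to 71.2 FPKM. Without dKO replicate 2, the log2 fold change of Thy1 was -0.68 and did not pass (limma adjusted p = 0.065), and that of Cd7 was 1.26 and passed (limma adjusted p = 0.020). The part of the myeloid markers in these values was not tested.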

How the data were processed

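Sorted mouse Treg were sequenced as 2 dKO and 2 WT libraries. Per the labels' protocols, RNeasy Plus Mini columns yielded the RNA and a TruSeq Stranded mRNA kit the libraries. The values are FPKM, deposited by the authors as 1 table per library. The tools were STAR and Cuffdiff and the build GRCm38, per the submitters' processing notes. Their versions, the annotation and any scaling between libraries were not given in the sources used here. Each table holds 32767 genes and 32767 blank rows, and 22945 GENCODE vM21 genes with later identifiers were not analysed here. In all, 27 gene names stood as dates and were restored by identifier. The 6 libraries of Treg subsets were not used here.

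Genes were tested in R 4.3.3 with limma 3.58.1 (trended variances, two-sided, Benjamini-Hochberg adjustment at 0.05) on log2(FPKM + 1) of the deposited values for genes that reached 1 FPKM in 2 or more libraries. This scale understates changes of weakly expressed genes. The fit was tested on simulated data. The text names the 10 genes, Foxp3, Tcf7 and Lef1 and, of each related list, passing members and the 4 with the largest change that averaged 5 FPKM or more in dKO or WT. It also names up to 3 genes closest in pattern to each passing gene and the highest of each marker list. Neighbouring genes, Cd48, Cd8a, Gpr83, Ikzf2, Prf1, Gzma, Eomes, Syk and the low markers were named after their values were seen. The genes and lists were chosen with earlier results of these data known. Coordinates are from GENCODE vM21 and promoters from RefSeq, both on GRCm38. The alternatives tried numbered 13.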

Additional observations from a re-analysis of the deposited data

How the results depend on the processing

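Of the 10 genes, 2 passed (1 higher and 1 lower in dKO). A pseudocount of 0.1 and a mean of at least 5 FPKM left 1 (1 higher, 0 lower), while no filter, no variance trend and the replicate number as a block left 0 (0 higher, 0 lower). Leaving out 1 library at a time gave 0 to 2 (0 to 1 higher, 0 to 1 lower), with a lone library assumed to vary like the other group. The other settings kept the count at 2. No direction of the 10 genes was reversed in the 13 alternatives. None of these alternatives scaled the values to the summed FPKM of a library, which lay higher in both dKO libraries. The directions on that scale were not tested. The median of the 10 genes lay between -0.13 (without dKO replicate 2) and -0.0488 (without dKO replicate 1) over the removals of single libraries. Of the TCR signalling list, 1 passed with median scaling and with quantile normalization and 2 without genes listed at 0. Of the regulators, 2 passed without genes listed at 0, 0 with no filter and with the replicate block, and 0 to 1 with 1 library left out. Of the other surface glycoproteins, 0 to 3 passed with 1 library left out. Foxp3 ranged from -0.0051, a reversed sign without WT replicate 2, to 0.17 without WT replicate 1. Over all genes, 34 passed as higher and 41 as lower in dKO. The counts were 12 higher and 9 lower with the replicate block, 19 and 24 with no variance trend, 6 and 0 with no filter, and 45 and 72 without genes listed at 0. They were 36 and 100 without dKO replicate 2, 9 and 33 without dKO replicate 1, 19 and 2 without WT replicate 1, and 11 and 3 without WT replicate 2. The samples share only a replicate number: over 10710 genes the deviations of same-numbered libraries had a correlation of 0.0141. Why calls were lost was not tested. With 2 libraries per group and unknown depth, small differences are not resolved.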
